A study of Rattus norvegicus with 42 samples.

Results

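Extracellular matrix proteases and their inhibitors were followed in rat metanephric mesenchyme as it was cultured with or without factors that turn it into nephron epithelium. The members were every gene on the array whose symbol belongs to the matrix metalloproteinase (Mmp), tissue inhibitor of metalloproteinases (Timp), Adam, Adamts, Adamtsl or cathepsin (Cts) families, together with Plau, Plaur, Plat, Serpine2, Serpinf1 and Serpinh1. They came to 76 of the 14218 genes that the array measured with a probe set of their own, and 57 of the 76 passed the filter on low values, as did 11388 of all genes. The 57 were 12 of 17 metalloproteinases, 4 of 4 TIMPs, 10 of 16 ADAMs, 10 of 12 ADAMTS proteases, 4 of 4 ADAMTS-like proteins, 11 of 17 cathepsins, 3 of 3 plasminogen activation genes and 3 of 3 serpins.

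The mesenchyme was dissected from rat kidneys at embryonic day 13.5 and freed of the ureteric bud. It was profiled on 42 arrays in 21 groups of 2 biological replicates. Explants with the inducer LIF (leukemia inhibitory factor), NGAL (neutrophil gelatinase-associated lipocalin) or ANX, a fraction that the sources used here do not describe, were taken on days 1, 2, 3, 4, 5 and 7. Explants without an inducer, called controls here, were taken on days 1 and 2, and fresh mesenchyme was taken before culture. All cultures, controls included, sat on collagen-coated filters in DMEM/F12 medium that carried recombinant FGF and TGF, the hormones insulin, T3, prostaglandin and dexamethasone, and transferrin with selenium, so the effect of culture cannot be told apart from that of these additions. Neither strain nor genotype is stated in the labels, and the labels do not say whether replicates came from separate litters, so the p-values measure the spread between these arrays.

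In the developing kidney the mesenchyme condenses, turns into epithelium and lays down a basement membrane while the surrounding stroma keeps an interstitial matrix. Matrix metalloproteinases are zinc proteases that cut collagens and other matrix proteins, and TIMPs bind and block them. Urokinase and tissue plasminogen activator turn plasminogen into plasmin, which digests fibrin and activates some metalloproteinases, and serpins restrain these serine proteases. ADAMs release the outer parts of membrane proteins, ADAMTS proteases are secreted and cut proteoglycans such as versican and aggrecan, and cathepsins work mainly in lysosomes. NGAL takes its name from the gelatinase Mmp9, to which the protein binds in neutrophils.

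Values are log2 intensities, on which 1 unit is a 2-fold difference, and a gene counted as measured if at least 1 group averaged above 5.79, which is the 40th percentile of the data. A change is the log2 difference between group means with the standard error (SE) of the linear model, and a gene is called when its p, adjusted by limma over all 11388 genes by Benjamini-Hochberg, is under 0.05. Of the 57 measured members, 36 had means above 5.79 in all 21 groups. The other 21 were below it in at least 1 group, so the filter itself favoured those among them that differ, and the counts below are descriptions. Where the call of a described member was lost when 1 array was left out, the array whose loss gave the highest adjusted p is named. Such a call may have been lost without other arrays too. Where group means lay under 5.79, the change with those means raised to 5.79 is given if it is over 1.5 times smaller, and is called the floored change. Levels are compared between arrays of 1 gene, not between genes.

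Array medians lay between intensities of 83.3 and 88.4, and replicate arrays correlated at 0.936 to 0.995. On 3 arrays the listed markers of renal stroma, such as Col1a1 and Pdgfra, averaged more than 1 log2 unit above the replicate, with gaps of 1.418 on LIF day 4 replicate 2, 1.513 on LIF day 7 replicate 2 and 1.507 on ANX day 3 replicate 2. Members differed by over 1 log2 unit between replicates more often than genes at large in these groups, with 9 of 57 (15.8%) against 3.99% at LIF day 4, 10 (17.5%) against 7.71% at LIF day 7 and 13 (22.8%) against 7.53% at ANX day 3. NGAL day 7 did so as well, with 12 (21.1%) against 6.18%. In whole explants, fewer cells of a type and less RNA per cell cannot be told apart. All 7 measured mesenchyme markers, Wt1 among them, were above the threshold in fresh mesenchyme. The number of arrays limits the precision of each value.

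**Figure D1:**
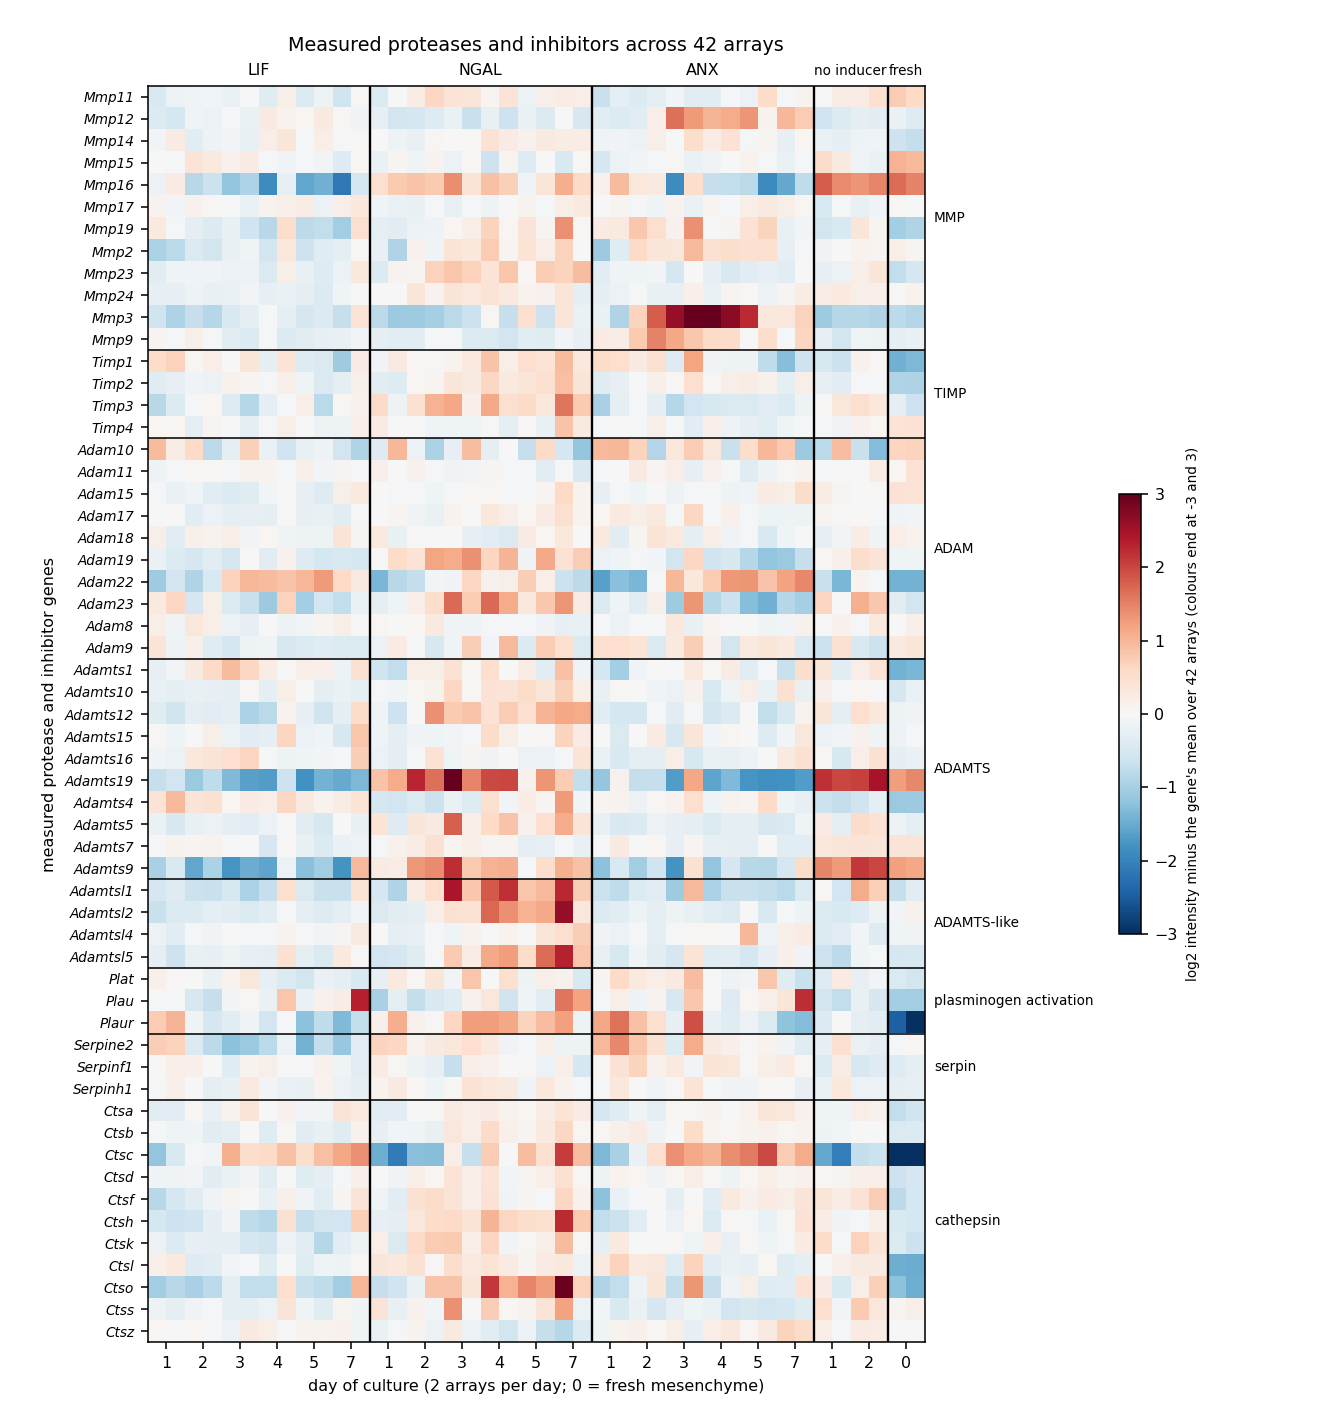
Heat map of the 57 measured members (rows, by family) on 42 arrays (columns, by culture and day), coloured by log2 intensity minus the gene's mean over all arrays. Mmp3 stands out in ANX days 2 to 5, Adamts19 and Adamts9 are low in LIF and ANX and high in NGAL, control and fresh arrays, and Plaur and Ctsc are lowest in fresh mesenchyme.

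In culture without an inducer the members that were called changed almost entirely upward. On day 1 control explants had 8 of 57 members higher and 0 lower than fresh mesenchyme, while 3.80% of all genes were called higher and 2.26% lower. On day 2 they had 15 higher and 2 lower, against 9.47% and 12.7% of all genes. The median change of the members was 0.19 on day 1 and 0.43 on day 2, against 0.00 and -0.05 over all genes tested. Called or not, 38 of the 57 changed upward and 19 downward on day 1, and 40 upward and 17 downward on day 2. The day 1 count depended on single arrays, falling to 2 without control day 1 replicate 1, to 3 without either fresh array and to 5 without control day 1 replicate 2. The day 2 count was 10 without control day 2 replicate 1 and 11 without fresh replicate 1. Renal stroma markers had summed intensities of 26943 to 28946 on day 1 and 30438 to 31198 on day 2, against 17663 to 18615 in fresh mesenchyme. Of the 12 on the array, 0 were called higher and 1 lower on day 1, and 1 higher and 2 lower on day 2. Skeletal muscle markers were called higher for 4 of 6 on day 2, with sums of 3528 to 4047 against 1166 to 1231, and endothelial markers were called lower for 5 of 9. Erythroid markers were called lower for 3 of 6 on day 1 and 5 of 6 on day 2, with sums of 4233 to 5855 and 3091 to 4040, against 16396 to 18149. The part of these cell types in the protease changes was not tested. The log2 ratio of 3' to 5' probe sets of the dap control was 2.03 and 2.13 on the day 2 control arrays and 1.99 and 0.91 on the day 1 control arrays, against 1.13 and 1.19 on the fresh arrays. With this ratio as a covariate the day 2 count was 11 higher and 1 lower, and Adam15, Ctsk, Ctso, Mmp14 and Mmp19 lost their calls.

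In the first 2 days the inducers differed in how many members were called, as they did in the share of all genes called. LIF explants of days 1 and 2 had 2 members higher and 10 lower than controls of the same days, against 11.4% and 12.6% of all genes (24.0% in either direction). ANX explants had 7 higher and 8 lower, against 11.2% and 9.12% (20.3% in either direction). NGAL explants had 0 members called in either direction by limma, as for all genes (0% higher and 0% lower). There 1 member was under an unadjusted p of 0.05, and the lowest adjusted p among members was 0.662. These 3 comparisons share the 4 control arrays. Leaving out control day 2 replicate 1 brought the LIF count of 12 to 7, and leaving out ANX day 1 replicate 1 brought the ANX count of 15 to 8. Renal stroma markers moved with both, called lower for 8 of 12 with LIF (sums of 11124 to 18856, against 26943 to 31198 in controls) and for 6 of 12 with ANX (14242 to 20774 against the same controls). Endothelial markers were lower for 6 of 9 with LIF (885 to 1534, against 1561 to 3217 in controls), and for 4 of 9 with 1 higher with ANX (1196 to 2137). Erythroid markers were lower for 4 of 6 with LIF (663 to 2625, against 3091 to 5855 in controls) and for 4 of 6 with ANX (694 to 3909). The part of these cell types in the protease changes was not tested.

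**Figure D2:**
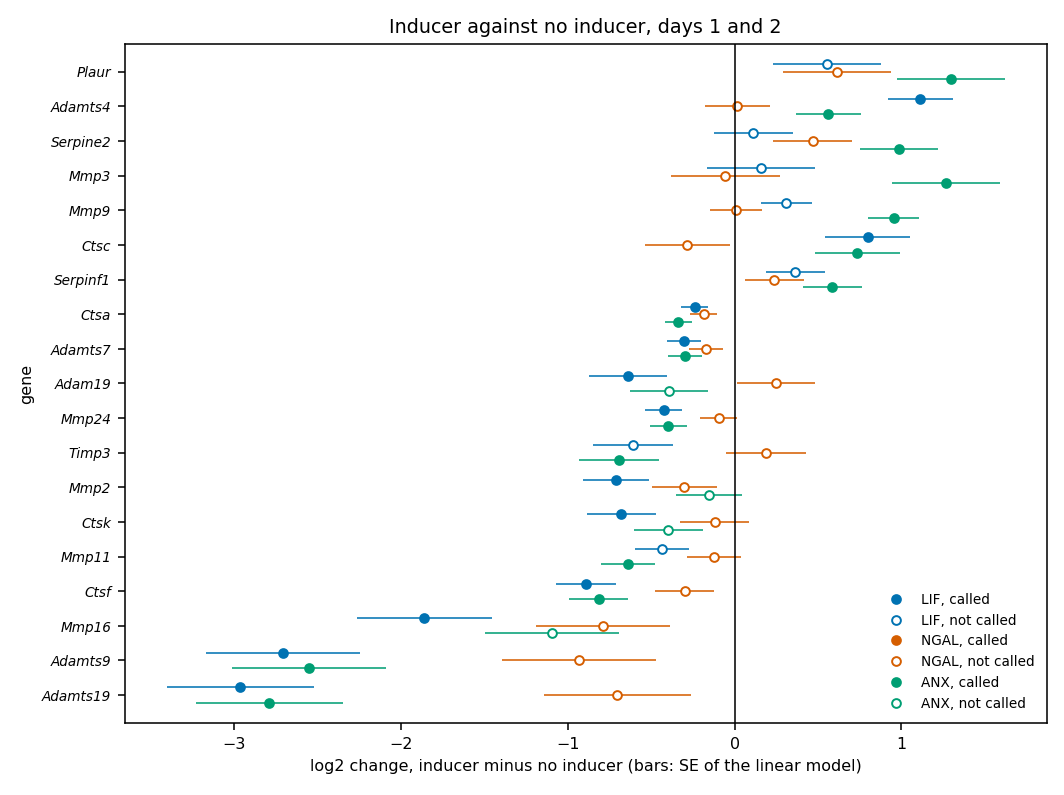
Change in log2 intensity of each member called with at least 1 inducer, as LIF, NGAL or ANX minus control over days 1 and 2, with bars for the SE of the linear model. Filled points are called and open points are not. All NGAL points are open, Adamts19 and Adamts9 lie near -3 to -2.5 with LIF and ANX, and Mmp3, Mmp9, Plaur and Serpine2 are filled with ANX alone.

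Plasminogen activation centred on Plaur, the urokinase receptor that holds the protease at the cell surface. Plaur read 7.08 and 7.47 in day 1 controls and 7.23 and 7.14 in day 2 controls, against 5.04 and 4.47 in fresh mesenchyme. Fresh arrays were thus the lowest of all, and both lay below the threshold. The change was 2.52 (SE 0.46, adjusted p 0.00129) on day 1 and 2.43 (SE 0.46, adjusted p 0.000717) on day 2. The floored changes were 1.49 and 1.40. With ANX it was higher still, at 8.64 and 9.13 on day 1 and 8.37 and 7.96 on day 2, all above the 4 control arrays (1.29, SE 0.32, adjusted p 0.00667). LIF explants read 8.25 and 8.51 on day 1 but 7.38 and 6.98 on day 2, which overlapped the controls (0.55, SE 0.32, adjusted p 0.22). A second Plaur probe set, with a mean of 3.95, followed the first only loosely (correlation 0.22).

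Plaur fell by day 7 with LIF and ANX. On day 7 it read 6.16 and 6.75 with LIF, against 8.25 and 8.51 on day 1 (-1.92, SE 0.46, adjusted p 0.00934). With ANX it read 6.29 and 6.19 on day 7, against 8.64 and 9.13 on day 1 (-2.64, SE 0.46, adjusted p 0.000512). With NGAL the day 7 arrays read 8.71 and 7.35 and the day 1 arrays 7.65 and 8.58, which overlapped (-0.09, SE 0.46, adjusted p 0.92). The difference between the ANX and NGAL changes was -2.55 (adjusted p 0.0824), so it did not pass the test. Over all 6 days, LIF was below NGAL (log2 difference -1.03, SE 0.19, adjusted p 0.000124), with 12 LIF arrays at 6.16, 7.06 and 8.51 (lowest, median and highest) against 12 NGAL arrays at 7.35, 8.28 and 8.74. The LIF fall from day 1 lost its call without LIF day 7 replicate 1 (adjusted p 0.0844).

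The promoter of Plaur, from RefSeq on GRCr8, is shown because it held an AP-1 motif. The window runs from 250 bases before to 50 after the annotated start, at chr1:89181113-89181412 on the plus strand, and the capitals mark the motif at 83 bases upstream.
Plaur: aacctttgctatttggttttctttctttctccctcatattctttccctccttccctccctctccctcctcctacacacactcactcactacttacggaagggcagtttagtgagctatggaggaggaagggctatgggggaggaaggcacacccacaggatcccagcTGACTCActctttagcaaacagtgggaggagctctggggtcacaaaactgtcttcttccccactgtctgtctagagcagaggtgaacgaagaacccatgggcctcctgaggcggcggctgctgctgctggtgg

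Plau, urokinase itself, was called only in the NGAL course. It read 9.23 and 8.83 on NGAL day 7, against 6.65 and 7.36 on day 1 (2.03, SE 0.52, adjusted p 0.0102), and without NGAL day 7 replicate 1 the adjusted p was 0.114. The replicates on LIF day 7 were 7.85 and 9.96 and those on ANX day 7 were 7.99 and 9.85, wide apart, and the changes from day 1 of 1.33 (adjusted p 0.102) and 1.22 (adjusted p 0.124) were not called. The higher LIF array was the one with raised stroma markers. Plat, tissue plasminogen activator, ranged from 9.78 to 11.37 over the 36 induced arrays, from 10.06 to 10.69 in controls and from 9.88 to 10.02 in fresh mesenchyme, and it was called in none of the comparisons.

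Among the serpins, Serpine2 (protease nexin-1, an inhibitor of thrombin and the plasminogen activators) moved most. ANX explants read 10.26 and 10.73 on day 1 and 10.12 and 9.74 on day 2, against 9.04 and 9.76 in day 1 controls and 9.09 and 9.02 in day 2 controls. Only the ANX day 2 array at 9.74 lay under the highest control (0.99, SE 0.24, adjusted p 0.00484). LIF explants were at 8.14 and 8.95 on day 7, against 10.03 and 9.98 on day 1 (-1.46, SE 0.33, adjusted p 0.00715), a call that was lost without LIF day 7 replicate 1 (adjusted p 0.104). ANX explants fell to 9.19 and 8.92 on day 7, against the day 1 values above (-1.44, SE 0.33, adjusted p 0.00515), and the call was lost without ANX day 1 replicate 2 (adjusted p 0.0804). Over all days LIF was lower than ANX (log2 difference -0.94, SE 0.14, adjusted p 0.00014), with LIF arrays at 7.86, 8.53 and 10.03 (lowest, median and highest) against ANX arrays at 8.90, 9.48 and 10.73. It was also lower than NGAL (-0.77, SE 0.14, adjusted p 9.5e-05), whose arrays were at 9.12, 9.50 and 9.95.

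The remaining serpins do not inhibit proteases. Serpinf1 (pigment epithelium-derived factor) was higher with ANX than in controls by 0.59 (SE 0.18, adjusted p 0.0209), with arrays at 10.33 to 10.93 against 9.79 to 10.49, and without control day 1 replicate 1 the adjusted p was 0.158. Serpinh1 (the collagen chaperone HSP47) lay between 11.68 and 12.41 on all 42 arrays. It was called once, lower with LIF than with NGAL (-0.22, SE 0.08, adjusted p 0.0248), and the call was lost without LIF day 3 replicate 1 (adjusted p 0.065) and without the 3 arrays of raised stroma markers (adjusted p 0.0535). Its probe set can bind related transcripts, as can that of Plaur.

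Timp1 and Timp2 rose in control culture. Timp1, a secreted inhibitor of many metalloproteinases, read 11.18 and 11.09 in day 2 controls, against 9.62 and 9.71 in fresh mesenchyme (1.47, SE 0.38, adjusted p 0.00786), and without control day 2 replicate 1 the adjusted p was 0.0631. Day 1 controls, at 10.59 and 10.42, lay between them (0.84, SE 0.38, adjusted p 0.182). With ANX it fell to 9.78 and 10.45 on day 7, against 11.61 and 11.57 on day 1 (-1.47, SE 0.38, adjusted p 0.0108), a call lost without ANX day 7 replicate 1 (adjusted p 0.123). On LIF day 7 the replicates read 9.99 and 11.32, and the change from day 1 was -1.04 (SE 0.38, adjusted p 0.0768). On NGAL day 7 they read 12.01 and 11.38, with a change of 0.55 (SE 0.38, adjusted p 0.339).

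Timp2, which also helps Mmp14 to activate Mmp2, rose by 0.63 on day 1 (SE 0.17, adjusted p 0.031) and by 0.87 on day 2 (SE 0.17, adjusted p 0.0012) in control culture. Its arrays read 10.42 and 10.36 on day 1 and 10.63 and 10.63 on day 2, against 9.78 and 9.75 in fresh mesenchyme. The day 1 call was lost without any 1 of the 4 arrays compared, with the highest adjusted p without control day 1 replicate 1. It rose further from NGAL day 1 to day 7, with 11.57 and 11.05 against 10.36 and 10.28 (0.99, SE 0.17, adjusted p 0.000546). A second probe set followed the first only loosely (correlation 0.53 over 42 arrays), and with the mean of the probe sets neither control call held.

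Timp3, an inhibitor that binds to the matrix, separated the inducers. LIF arrays were at 8.43, 9.12 and 9.48 (lowest, median and highest of 12) and ANX arrays at 8.30, 8.87 and 9.25, against 9.14, 9.86 and 10.88 with NGAL. The difference from NGAL was -0.95 with LIF (SE 0.14, adjusted p 1.13e-05) and -1.12 with ANX (SE 0.14, adjusted p 3.34e-06). On all 6 days the LIF and ANX means were below the NGAL mean, though the ranges met. Of its 4 probe sets, the others correlated with the one used at 0.91, 0.64 and 0.09. Against controls ANX was lower (-0.69, SE 0.24, adjusted p 0.0424). This call was lost in 7 of 8 fits with 1 array left out, with the highest adjusted p without ANX day 1 replicate 1. It was also lost with the mean of probe sets, with renewed quantile normalization, with the dap ratio as a covariate and on either day alone. Timp4 lay between 5.74 and 6.93 on all arrays and was called in none of the comparisons.

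**Figure D3:**
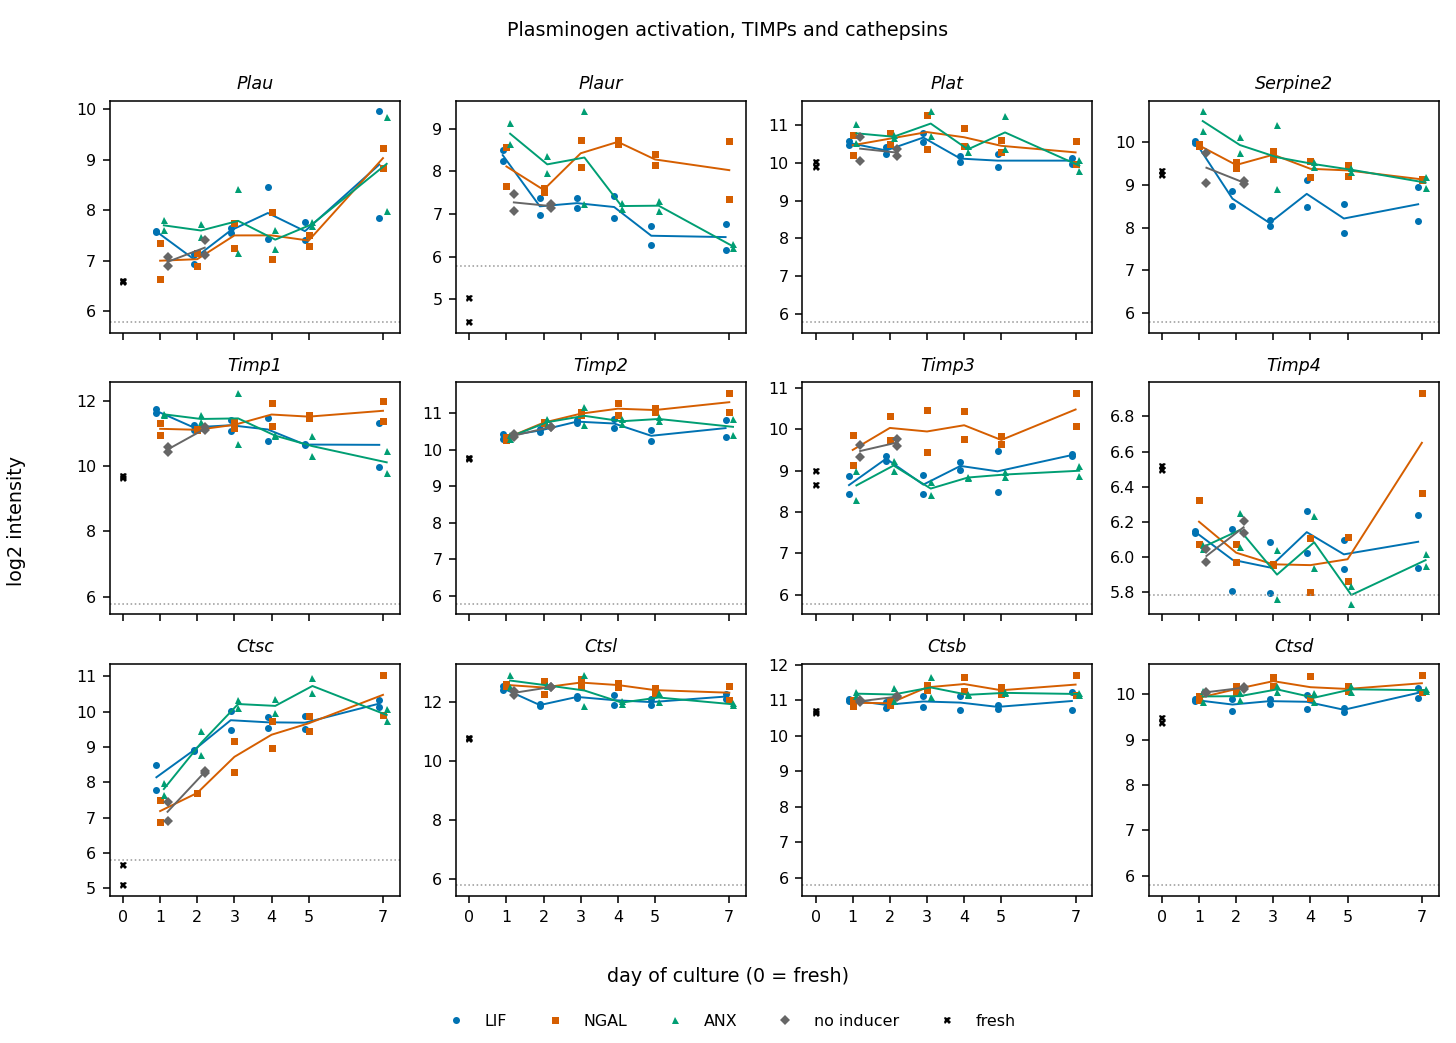
Log2 intensity of plasminogen activation genes, Serpine2, TIMPs and 4 cathepsins by day of culture. Points are arrays, lines join group means, day 0 is fresh mesenchyme and the dotted line is the threshold of 5.79. Plaur is at 6.16 to 6.75 on day 7 with LIF and ANX and at 7.35 and 8.71 with NGAL, Timp3 is highest with NGAL, and Ctsc is higher on day 7 than on day 1 with each inducer, with its highest group mean on ANX day 5.

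Among the metalloproteinases, Mmp3, stromelysin-1, peaked with ANX on days 3 and 4. It read 4.95 and 4.25 on ANX day 1, 5.82 and 6.96 on day 2, 7.76 and 8.38 on day 3, 8.39 and 7.85 on day 4, 7.38 and 5.48 on day 5, and 5.49 and 5.84 on day 7. Controls read 4.09 to 4.29 and fresh mesenchyme 4.37 and 4.26. LIF arrays were at 4.22, 4.67 and 5.56 (lowest, median and highest) and NGAL arrays at 4.07, 4.49 and 5.64, all below the threshold, so 8 arrays of the 42 exceeded it and all 8 were ANX arrays. ANX was higher than NGAL by 1.89 (SE 0.19, adjusted p 3e-07) and LIF was lower than ANX (-1.84, SE 0.19, adjusted p 1.53e-06). The floored differences were 0.98 and -0.98. ANX over controls in the first 2 days was 1.26 (SE 0.32, adjusted p 0.00784), or 0.30 with that floor, and the call was lost without ANX day 2 replicate 2 (adjusted p 0.0531).

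Mmp12, macrophage elastase, was also highest with ANX. ANX arrays read 5.54 and 5.46 on day 1, 7.53 and 7.14 on day 3, 6.90 and 6.99 on day 4, and 6.86 and 6.63 on day 7. This list leaves out days 2 and 5, and on day 5 the ANX replicates lay over 1 log2 unit apart. NGAL arrays never exceeded 5.88 and LIF arrays never exceeded 6.15. ANX was higher than NGAL by 0.99 (SE 0.11, adjusted p 7.03e-07), and LIF was lower than ANX (-0.68, SE 0.11, adjusted p 0.000304). ANX day 7 exceeded day 1 by 1.25 (SE 0.26, adjusted p 0.00241). Of 15 macrophage and leukocyte markers, 13 were above the threshold in some group and 9 or 10 in each ANX group, while Ptprc and Csf1r were below it in every group. They summed to 1107 to 1871 in ANX arrays against 1177 to 3106 in NGAL arrays, with 1 called higher and 8 lower of 13 measured, and their part in the Mmp12 difference was not tested.

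Mmp9, the gelatinase named with NGAL, was near or under the threshold throughout. ANX arrays read 4.96 and 4.94 on day 1, 5.52 and 6.22 on day 2, and 5.89 and 5.54 on day 3, against 4.18 to 4.60 in controls (0.95, SE 0.15, adjusted p 0.000164 over days 1 and 2). The 2 arrays above the threshold were both ANX arrays, and with the floor the change was 0.04. NGAL arrays were at 4.18, 4.40 and 4.67 (lowest, median and highest), and the change from controls was 0.01 (SE 0.15, adjusted p 0.993). ANX read higher than NGAL by 0.87 (SE 0.09, adjusted p 4e-07), or 0.01 with the floor. LIF read lower than ANX (-0.73, SE 0.09, adjusted p 1.77e-05), or -0.01 with the floor. Mmp9 passed the filter through 1 group mean, that of ANX day 2 (5.87). These calls therefore rest on values under the threshold, and no difference is measured in them.

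Mmp3 and Mmp12 lie in a cluster on rat chromosome 8 in which RefSeq orders the members Mmp13, Mmp12, Mmp3, Mmp10, Mmp8 and Mmp7. Mmp13 (collagenase-3) and Mmp10 (stromelysin-2) did not pass the filter, and are described here after their values were seen. Mmp13 read 5.64 and 5.72 on ANX day 3 and 5.67 and 5.69 on ANX day 4. Mmp10 read 5.52 and 4.80 on ANX day 3 and 5.44 and 5.36 on ANX day 4. All these values lay under the threshold, as did every array for Mmp7, Mmp8, Mmp10 and Mmp13, so no order among groups is read from them.

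The promoters of the cluster are shown because 5 of its 6 members held the AP-1 motif TGAGTCA, or its reverse complement TGACTCA, in the 300 bases around the start. On both strands that motif was found in 7 of 55 member windows (12.7%), which cover 52 of the 76 members, and in 1550 of 33469 windows of all genes (4.63%). The other 2 were Plaur and Adam19, while the Mmp8 window held none. A match is a description of these letters and not a binding site. The windows run from 250 bases before to 50 after the RefSeq start on GRCr8, plus strand, with capitals for the motif, at chr8:12782579-12782878 for Mmp13, chr8:12866402-12866701 for Mmp12, chr8:12925031-12925330 for Mmp3, chr8:12974457-12974756 for Mmp10 and chr8:13132793-13133092 for Mmp7.
Mmp13: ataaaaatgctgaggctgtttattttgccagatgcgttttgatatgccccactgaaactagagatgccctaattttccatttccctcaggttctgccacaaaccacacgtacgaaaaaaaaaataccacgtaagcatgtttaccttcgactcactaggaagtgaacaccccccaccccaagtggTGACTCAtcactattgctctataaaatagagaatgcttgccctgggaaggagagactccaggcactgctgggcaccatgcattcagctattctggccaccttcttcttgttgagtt
Mmp12: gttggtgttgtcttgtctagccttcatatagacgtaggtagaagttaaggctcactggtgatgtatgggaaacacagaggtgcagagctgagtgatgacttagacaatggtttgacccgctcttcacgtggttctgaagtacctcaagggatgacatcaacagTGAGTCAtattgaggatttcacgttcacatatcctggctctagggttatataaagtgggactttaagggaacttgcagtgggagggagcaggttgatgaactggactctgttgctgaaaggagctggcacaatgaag
Mmp3: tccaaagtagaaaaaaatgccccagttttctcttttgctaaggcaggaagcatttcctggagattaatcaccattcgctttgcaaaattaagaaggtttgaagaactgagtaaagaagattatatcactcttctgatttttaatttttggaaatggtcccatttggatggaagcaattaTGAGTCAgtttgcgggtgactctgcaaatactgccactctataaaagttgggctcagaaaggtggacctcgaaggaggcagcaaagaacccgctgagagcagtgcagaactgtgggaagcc
Mmp10: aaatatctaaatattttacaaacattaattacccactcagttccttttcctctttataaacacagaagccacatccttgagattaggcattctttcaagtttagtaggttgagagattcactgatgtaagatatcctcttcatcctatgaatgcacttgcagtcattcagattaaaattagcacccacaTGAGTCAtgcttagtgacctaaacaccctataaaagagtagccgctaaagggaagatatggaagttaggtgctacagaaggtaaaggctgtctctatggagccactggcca
Mmp7: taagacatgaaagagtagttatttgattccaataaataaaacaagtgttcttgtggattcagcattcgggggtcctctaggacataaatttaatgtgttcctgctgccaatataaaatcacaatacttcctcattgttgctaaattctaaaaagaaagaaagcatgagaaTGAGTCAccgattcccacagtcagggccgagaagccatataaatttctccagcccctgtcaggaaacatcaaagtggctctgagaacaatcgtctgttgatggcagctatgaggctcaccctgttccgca

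The motif began 66 bases upstream of the start in Mmp13, 87 in Mmp12, 71 in Mmp3, 61 in Mmp10 and 80 in Mmp7, so it sat within a narrow band in all 5. Of these 5, Mmp7, Mmp10 and Mmp13 did not pass the filter. The other motifs searched were no more frequent among members than among all windows. The STAT motif TTCNNNGAA was in 7.27% of member windows against 8.87% of all, the E-box CAGGTG or CACCTG in 5.45% against 18.8%, and the ETS motif CCGGAAG or its reverse complement in 7.27% against 8.75%. Both strands were searched, and overlaps between different motifs were not counted.

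Membrane-type metalloproteinases followed other courses. Mmp16, a membrane-anchored activator of Mmp2, read 6.42 and 6.83 on LIF day 1 and 5.75 and 5.95 on LIF day 2, against 8.41 and 8.01 in day 1 controls and 7.91 and 8.06 in day 2 controls (-1.86, SE 0.40, adjusted p 0.00192). All 4 LIF arrays lay below all 4 controls. Over 6 days LIF arrays were at 4.43, 5.70 and 6.83 (lowest, median and highest), ANX arrays at 4.68, 5.88 and 7.52, and NGAL arrays at 6.48, 7.33 and 7.99. The difference from NGAL was -1.63 with LIF (SE 0.23, adjusted p 9.32e-06) and -1.19 with ANX (SE 0.23, adjusted p 0.000386). The 3 arrays with raised stroma markers were also high for Mmp16, at 6.33 and 6.05 in LIF days 4 and 7 and 7.12 in ANX day 3, against replicates at 4.71, 4.43 and 4.71.

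Mmp14, the main membrane activator of Mmp2, was high everywhere, and rose little. It read 11.39 and 11.41 in day 2 controls, against 10.92 and 10.83 in fresh mesenchyme (0.53, SE 0.15, adjusted p 0.0144), a call lost without any 1 of the 4 arrays compared (adjusted p up to 0.106, without fresh replicate 2). Its second probe set did not follow the first (correlation 0.10), and with the mean of its probe sets the change was -0.05 (adjusted p 0.9). Mmp15, another membrane-type enzyme, fell to 6.92 and 6.86 in day 2 controls, against 8.10 and 8.02 in fresh mesenchyme (-1.17, SE 0.19, adjusted p 0.000187), and all 36 induced arrays lay between 6.45 and 7.47. Mmp24 differed by small steps, lower than controls with LIF (-0.43, SE 0.11, adjusted p 0.00653) and ANX (-0.40, SE 0.11, adjusted p 0.0125), the ANX call being lost without ANX day 2 replicate 2 (adjusted p 0.0519).

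Mmp2, gelatinase A, which is abundant in mesenchyme, was lower with LIF. It read 9.03 and 9.18 on LIF day 1 and 9.56 and 9.44 on day 2, against 9.88 to 10.10 in controls (-0.71, SE 0.20, adjusted p 0.0106). Over 6 days it was lower with LIF than with NGAL (-0.52, SE 0.11, adjusted p 0.000686) and than with ANX (-0.58, SE 0.11, adjusted p 0.0037), and ANX and NGAL differed by 0.05 (SE 0.11, adjusted p 0.746). Its other probe set did not track it (correlation 0.02), and the call against controls did not hold with the mean of the probe sets. In the NGAL course it rose by 0.92 (SE 0.28, adjusted p 0.0262), which was lost without NGAL day 7 replicate 1 (adjusted p 0.34). Mmp23 rose by 0.94 there (SE 0.24, adjusted p 0.00973), which was lost without NGAL day 1 replicate 1 (adjusted p 0.114). It was lower with LIF (-0.61, SE 0.10, adjusted p 3.6e-05) and ANX (-0.70, SE 0.10, adjusted p 1.38e-05) than with NGAL.

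**Figure D4:**
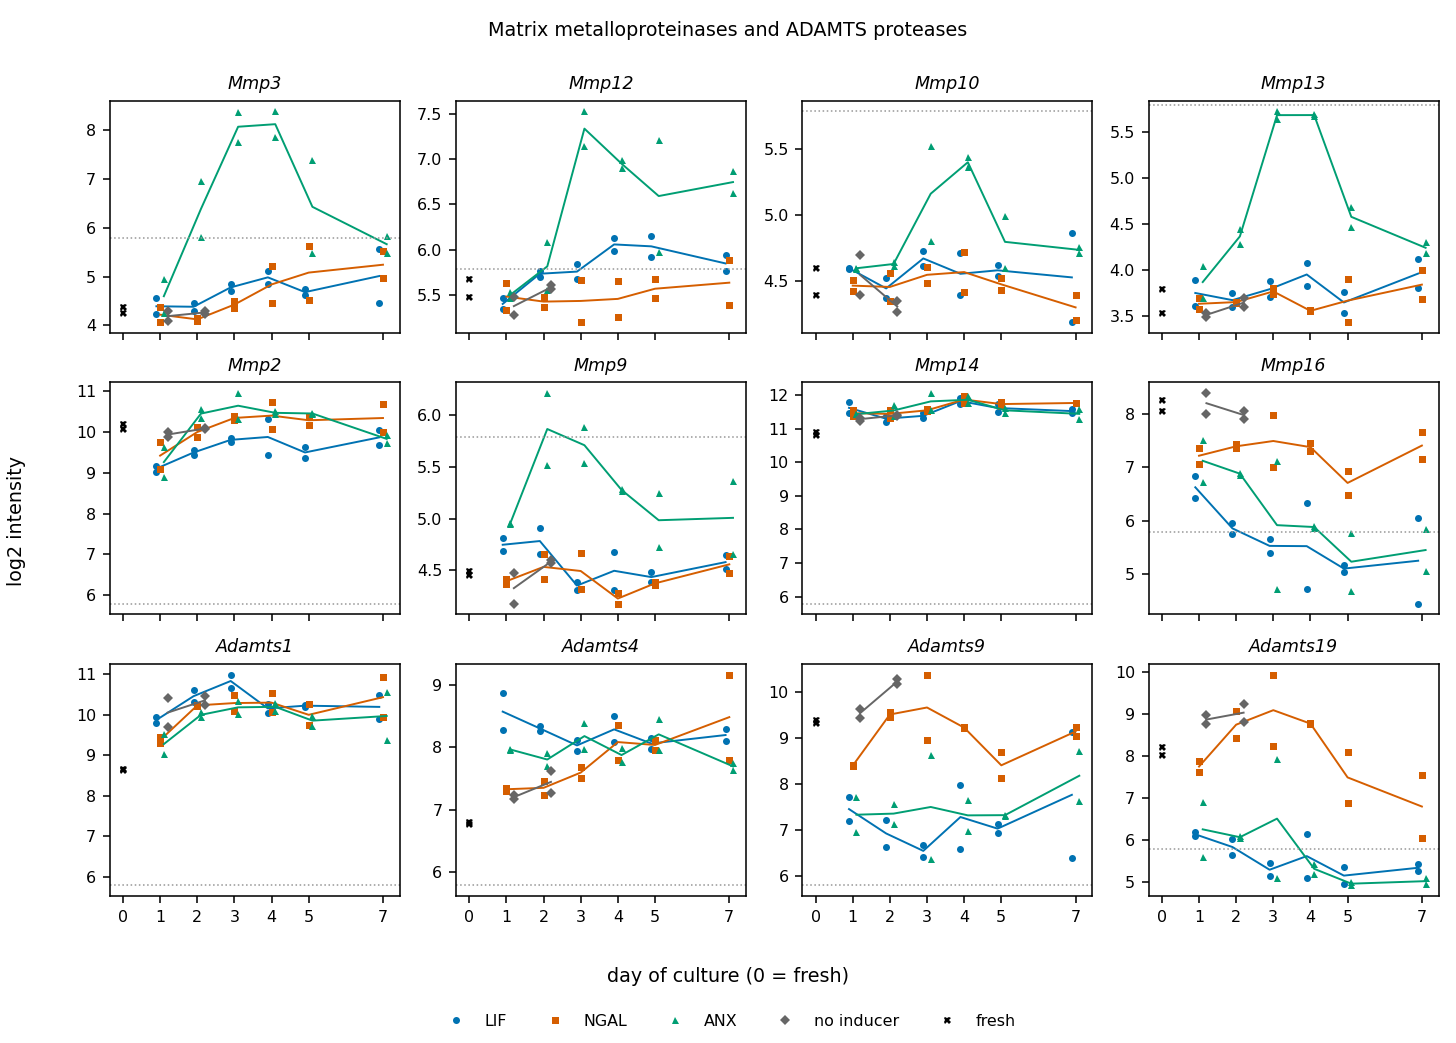
Log2 intensity of 8 metalloproteinases and 4 ADAMTS proteases by day of culture. Points are arrays, lines join group means, day 0 is fresh mesenchyme and the dotted line is the threshold of 5.79. Mmp3 and Mmp12 crest in ANX on days 3 and 4, Mmp10 and Mmp13 stay below the threshold on all arrays, and Adamts9, Adamts19 and Mmp16 run lower with LIF and ANX than with NGAL.

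Of the 10 measured ADAMTS proteases, 3 were lower and 1 higher with each of LIF and ANX against controls, where 12.6% of all genes were lower and 11.4% higher with LIF and 9.12% and 11.2% with ANX. Adamts4 was the higher one and Adamts7, Adamts9 and Adamts19 the lower ones in each of these comparisons, which share their controls. The Adamts7 changes were small, at -0.30 with LIF (SE 0.10, adjusted p 0.0338) and -0.29 with ANX (SE 0.10, adjusted p 0.0425). Both were lost in 7 of 8 fits with 1 array left out, with the highest adjusted p without LIF day 1 replicate 1 (0.121) and without ANX day 1 replicate 1 (0.215), and on either day alone. Adamts19, an enzyme whose substrates are little known, read 6.09 and 6.19 on LIF day 1 and 5.65 and 6.02 on day 2. With ANX it read 5.60 and 6.91 on day 1 and 6.05 and 6.09 on day 2. Controls read 8.96 and 8.77 on day 1 and 8.82 and 9.24 on day 2, and no induced array with LIF or ANX reached them. The changes were -2.96 with LIF (SE 0.44, adjusted p 6.07e-05) and -2.79 with ANX (SE 0.44, adjusted p 0.000139), the largest falls of any member in both comparisons. Fresh mesenchyme, at 8.03 and 8.21, lay below the controls.

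Over 6 days Adamts19 arrays were at 4.96, 5.43 and 6.19 with LIF (lowest, median and highest), 4.92, 5.32 and 7.93 with ANX, and 6.06, 8.16 and 9.94 with NGAL. The highest ANX value belonged to day 3 replicate 2, one of the arrays with raised stroma markers, whose replicate read 5.09. The LIF minus NGAL difference was -2.54 (SE 0.25, adjusted p 1.74e-07), and -2.65 without the 3 such arrays. The ANX minus NGAL difference was -2.42 (SE 0.25, adjusted p 5.72e-07).

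Adamts9, a versican-cutting protease also needed for matrix export, moved likewise. It read 7.19 and 7.72 on LIF day 1 and 6.62 and 7.22 on day 2, and 6.95 and 7.71 on ANX day 1 and 7.14 and 7.57 on day 2, against 9.64 and 9.45 in day 1 controls and 10.30 and 10.18 in day 2 controls. The changes were -2.71 with LIF (SE 0.46, adjusted p 0.000236) and -2.55 with ANX (SE 0.46, adjusted p 0.000484), with no overlap. Over 6 days LIF arrays were at 6.38, 7.03 and 9.14 (lowest, median and highest) and ANX arrays at 6.37, 7.45 and 8.73, against 8.13, 9.13 and 10.39 with NGAL. The difference from NGAL was -1.90 with LIF (SE 0.27, adjusted p 7.62e-06) and -1.56 with ANX (SE 0.27, adjusted p 9.92e-05). The LIF maximum was day 7 replicate 2, whose replicate read 6.38. A second probe set for Adamts9 ran against the first (correlation -0.36).

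Adamts4, an aggrecanase, was the ADAMTS that LIF raised. It read 8.28 and 8.86 on LIF day 1 and 8.26 and 8.34 on day 2, against 7.24 and 7.16 in day 1 controls and 7.27 and 7.62 in day 2 controls (1.11, SE 0.20, adjusted p 0.000319). ANX raised it by 0.56 (SE 0.20, adjusted p 0.0442), a call lost without any 1 of the 8 arrays compared (adjusted p up to 0.152, without control day 2 replicate 1). NGAL explants reached 9.16 and 7.80 by day 7, against 7.35 and 7.30 on day 1 (1.16, SE 0.28, adjusted p 0.00652), and without NGAL day 7 replicate 1 the adjusted p was 0.298. Adamts1 rose in control culture instead, to 10.40 and 9.70 on day 1 and 10.24 and 10.46 on day 2, against 8.63 and 8.66 in fresh mesenchyme. The changes were 1.41 (SE 0.32, adjusted p 0.00807) and 1.71 (SE 0.32, adjusted p 0.00059). The day 1 call was lost in 3 of 4 fits with 1 array left out, with the highest adjusted p without control day 1 replicate 1. Adamts1 was not called with any inducer against controls.

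The ADAMTS-like proteins, which lack the protease domain and bind to the matrix, rose in the NGAL course for 4 of 4 members, where 6.92% of all genes were called higher and 8.60% lower. Adamtsl5 read 9.53 and 8.06 on NGAL day 7, against 6.64 and 6.71 on day 1 (2.12, SE 0.35, adjusted p 0.000318). Adamtsl2 read 8.82 and 6.52 against 5.74 and 5.86 (1.87, SE 0.37, adjusted p 0.00142). Adamtsl1 read 8.00 and 6.48 against 5.24 and 4.84 (2.20, SE 0.53, adjusted p 0.00664), a floored change of 1.45. Replicate 1 of NGAL day 7 was the higher in all 3, and without it Adamtsl1 was not called (adjusted p 0.186), while Adamtsl5 changed by 1.38 and Adamtsl2 by 0.72 and kept their calls. Adamtsl4 changed by 0.74 (SE 0.21, adjusted p 0.0185), or 0.35 floored, which was lost without NGAL day 1 replicate 2 (adjusted p 0.185). None of the 4 was called in the LIF or ANX courses, though all 4 changed upward in both. No difference between inducers in the change from day 1 to day 7 was called for any of them, so a rise particular to NGAL is not shown. Adamtsl4 passed the filter through 2 group means, the higher being that of NGAL day 7. Over 6 days Adamtsl1 was at 4.78, 5.17 and 6.22 (lowest, median and highest) with LIF and 4.66, 5.07 and 6.71 with ANX, against 4.84, 6.55 and 8.19 with NGAL. Its differences from NGAL were -1.39 with LIF (SE 0.22, adjusted p 2.45e-05) and -1.49 with ANX (SE 0.22, adjusted p 1.98e-05).

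Over the whole NGAL course 16 members were called higher on day 7 than on day 1 and 0 lower, against the shares of all genes just given, and the members' median change was 0.44 against -0.07. The count was 6 without NGAL day 7 replicate 1 and 8 without NGAL day 1 replicate 2. Renal stroma markers summed to 24051 and 43575 on the day 7 arrays, against 20766 and 21198 on day 1, with 2 called higher and 1 lower of 12. Macrophage and leukocyte markers were called higher for 2 and lower for 1 of 13 in the NGAL course. Mesenchyme markers were called lower there for 2 of 7, with sums of 2585 and 6694 on day 7 against 7549 and 8971 on day 1. Skeletal muscle markers were called higher for 1 of 6 in the NGAL course, with sums of 3364 and 6107 on day 7 against 2146 and 2174 on day 1. The LIF course had 4 higher and 2 lower members (4.39% and 6.51% of all genes), with 3 called in all without LIF day 1 replicate 1 and 2 without LIF day 1 replicate 2. The ANX course had 8 higher and 5 lower (6.40% and 7.43%), a total of 13 (13.8% of all genes) that became 8 and 7 when the first or second ANX day 1 array was dropped and 6 when ANX day 7 replicate 2 was. With only the 4 arrays of each course in the fit, 0 members were called with LIF, 1 with NGAL and 6 with ANX, against 0.263%, 1.26% and 5.15% of all genes. Epithelial markers rose in all 3 courses, for 4 of 6 with LIF, 4 with NGAL and 5 with ANX. Endothelial markers were called lower for 5, 6 and 7 of 9 in the LIF, NGAL and ANX courses, and erythroid markers for 3 of 6 in each. The part of these cell types in the protease changes was not tested.

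Among the ADAMs, Adam22, a catalytically inactive member known as a receptor in the nervous system, rose most. With ANX it read 8.55 and 8.77 on day 7, against 5.71 and 6.08 on day 1 (2.76, SE 0.35, adjusted p 1.63e-05). With LIF it read 7.93 and 7.59, against 6.28 and 6.76 (1.24, SE 0.35, adjusted p 0.0221), a call lost without LIF day 1 replicate 1 (adjusted p 0.183). NGAL arrays peaked on day 5 at 8.07 and 7.53 and read 6.70 and 6.55 on day 7. The difference between the ANX and NGAL changes was 2.37 (SE 0.49, adjusted p 0.0527). It had also risen in day 2 controls, to 7.45 and 7.28 against 5.91 and 5.93 in fresh mesenchyme (1.45, SE 0.35, adjusted p 0.00477), and this call was lost without control day 2 replicate 1 (adjusted p 0.0527). Of its 3 probe sets, the others correlated with the one used at -0.05 and at 0.80, the latter with a mean of 4.09. With the mean of the probe sets the call from LIF day 1 to day 7 did not hold.

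Adam23, its inactive relative, went the other way between inducers. It was at 5.37, 5.99 and 7.14 (lowest, median and highest) with LIF and 5.00, 5.70 and 7.79 with ANX, against 6.20, 7.10 and 8.17 with NGAL. The differences from NGAL were -0.98 (SE 0.22, adjusted p 0.000925) and -1.24 (SE 0.22, adjusted p 0.000148). Adam19, an active sheddase, was at 8.45, 8.58 and 9.11 with LIF and 7.78, 8.46 and 9.61 with ANX, against 8.87, 9.66 and 10.33 with NGAL. These differences were -1.04 (SE 0.13, adjusted p 3.02e-06) and -1.15 (SE 0.13, adjusted p 1.82e-06), with the same direction on 6 of 6 days.

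Adam15 fell to 6.84 and 6.88 in day 2 controls, against 7.30 and 7.27 in fresh mesenchyme (-0.42, SE 0.14, adjusted p 0.0315). This call was lost without any 1 of the 4 arrays compared, and with the dap ratio as a covariate. Among the best known sheddases changes were small or not called. Adam17 lay between 8.98 and 9.96 on all arrays and was lower with LIF than with NGAL (-0.29, SE 0.06, adjusted p 0.000868) and than with ANX (-0.26, SE 0.06, adjusted p 0.0185). The call against ANX was lost without LIF day 4 replicate 1 (adjusted p 0.0525). Adam10 was called nowhere, but its replicates lay far apart, at 8.78 and 6.91 on ANX day 7, for example. It moved with the log2 ratio of the 3' to the 5' probe sets of the dap control, which ranged from 0.789 to 2.33. On 11 arrays with a ratio of at least 1.8 Adam10 was at 6.72, 7.14 and 7.40 (lowest, median and highest), against 7.32, 8.53 and 9.01 on the other 31. Adam9 showed 5.27, 5.45 and 5.55 against 5.41, 6.20 and 6.89. In each of the 9 groups split by that ratio, the array with the higher ratio had the lower Adam10 and Adam9, and the same held for Serpinf1 and Serpinh1.

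Of the 11 measured cathepsins, 5 were higher in control culture on day 1 and 7 on day 2, where 3.80% and 9.47% of all genes were. Ctsc, dipeptidyl peptidase 1, which activates granule serine proteases in leukocytes, changed most. It read 7.44 and 6.89 in day 1 controls and 8.25 and 8.32 in day 2 controls, against 5.65 and 5.07 in fresh mesenchyme. The changes were 1.80 (SE 0.36, adjusted p 0.00314) and 2.92 (SE 0.36, adjusted p 6.59e-06), and the day 1 call was lost without control day 1 replicate 1 (adjusted p 0.0885). It was higher on day 7 than on day 1 with every inducer, at 10.13 and 10.33 on LIF day 7 against 7.78 and 8.50 on day 1 (2.09, SE 0.36, adjusted p 0.000881). On NGAL day 7 it read 11.06 and 9.90, against 7.49 and 6.87 on day 1 (3.30, SE 0.36, adjusted p 2.28e-06). On ANX day 7 it read 9.73 and 10.08, against 7.62 and 7.99 (2.10, SE 0.36, adjusted p 0.000457), and the highest of its 21 group means was that of ANX day 5 (10.73). In the first 2 days it was higher than controls with LIF (0.80, SE 0.25, adjusted p 0.0248) and ANX (0.73, SE 0.25, adjusted p 0.0427), though arrays overlapped, and the calls were lost without LIF day 1 replicate 2 (adjusted p 0.12) and ANX day 2 replicate 2 (adjusted p 0.163). The macrophage and leukocyte markers summed to 1563 to 1587 in day 2 controls against 1191 to 1228 in fresh mesenchyme, with 2 called higher and 1 lower of 13. In the NGAL course they summed to 1226 and 3106 on day 7 against 1309 and 1765 on day 1, again with 2 higher and 1 lower. They averaged 7.15 on NGAL day 7 replicate 1, which had the higher Ctsc, and 6.24 on replicate 2. Their part in the Ctsc changes was not tested.

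Ctsl, a broad endopeptidase, rose to 12.22 and 12.37 in day 1 controls and 12.49 and 12.49 in day 2 controls, against 10.76 and 10.75 in fresh mesenchyme (1.54, SE 0.21, adjusted p 7.21e-05, and 1.74, SE 0.21, adjusted p 6.59e-06). All 40 cultured arrays lay between 11.85 and 12.91. With ANX it read 11.87 and 11.95 on day 7, against 12.51 and 12.91 on day 1 (-0.80, SE 0.21, adjusted p 0.0135), a call lost without ANX day 1 replicate 2 (adjusted p 0.183). Ctsa, a lysosomal carboxypeptidase, rose by 0.55 (adjusted p 0.00453) and 0.84 (adjusted p 2.54e-05), and the aspartic protease Ctsd by 0.62 (adjusted p 0.0126) and 0.72 (adjusted p 0.00147). The day 1 call of Ctsa was lost in 2 of 4 fits with 1 array left out. Those of Ctsd and of Ctsf, the other cathepsin called on day 1, were lost in 4 of 4. The highest adjusted p came without fresh replicate 1 for each of these 3. Among the day 1 cathepsin calls only that of Ctsl held with every array left out. Ctsb, the most studied lysosomal cysteine protease, changed by 0.30 (adjusted p 0.342) and 0.43 (adjusted p 0.0996), neither called.

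Ctsf and Ctsk rose in day 2 controls and were lower with LIF than in controls. The day 2 changes from fresh mesenchyme were 1.24 for Ctsf (SE 0.25, adjusted p 0.00136) and 1.07 for Ctsk (SE 0.29, adjusted p 0.0117), and the Ctsk call was lost without control day 2 replicate 1 (adjusted p 0.112). Ctsf read 6.94 and 7.23 on LIF day 1 and 7.43 and 7.64 on day 2, against 8.12 and 7.98 in day 1 controls and 8.19 and 8.51 in day 2 controls (-0.89, SE 0.18, adjusted p 0.00099), and with ANX the change was -0.82 (SE 0.18, adjusted p 0.0025). It rose from day 1 to day 7, by 0.90 with LIF (SE 0.25, adjusted p 0.0227) and 1.00 with ANX (SE 0.25, adjusted p 0.00977), and these calls were lost without LIF day 1 replicate 1 (adjusted p 0.17) and ANX day 1 replicate 1 (adjusted p 0.285). Ctsk, the collagen-digesting cathepsin of osteoclasts, read 5.91 to 6.16 with LIF against 6.27 to 7.02 in controls (-0.68, SE 0.21, adjusted p 0.0196), and lost the call without control day 1 replicate 1 (adjusted p 0.13). Ctsh and Ctso rose in the NGAL course, by 1.77 (SE 0.39, adjusted p 0.00354) and 2.46 (SE 0.65, adjusted p 0.0122). Ctsh read 11.23 and 9.77 on day 7 against 8.74 and 8.72 on day 1, and Ctso read 7.78 and 5.53 against 4.15 and 4.25, a floored change of 0.87. Without NGAL day 7 replicate 1 neither was called (adjusted p 0.157 and 0.31). Ctso was also called in day 2 controls, at 5.02 and 5.57 against 3.62 and 3.38 in fresh mesenchyme (1.79, SE 0.65, adjusted p 0.0488), but both means were under the threshold, so no change is measured there. The call was lost without any 1 of the 4 arrays compared, with no filter and with the dap ratio as a covariate.

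Over the 6 days more members were lower than higher with LIF or ANX relative to NGAL. LIF was higher than NGAL for 5 members and lower for 31, against 21.5% higher and 20.3% lower of all genes. ANX was higher than NGAL for 7 and lower for 22, against 22.2% and 15.3%. These comparisons share the NGAL arrays. LIF was higher than ANX for 0 members and lower for 8, against 1.63% and 3.37% (5.01% in either direction), and without LIF day 4 replicate 1 that count was 5. These 8, and the 7 higher with ANX than with NGAL, include Mmp3 and Mmp9, which passed the filter only through ANX groups. Members that passed it through high NGAL groups can add to the lower counts likewise, so the filter has a part in these counts. Without the 3 arrays of raised stroma markers the counts in either direction were 38, 31 and 10, against 46.8%, 41.8% and 7.71% of all genes. The highest group mean was an NGAL group for 27 of 57 members (47.4%), against 20% of all genes tested, and the lowest group mean was an NGAL group for 5 (8.77%), against 29.5%.

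By family, the lower calls against NGAL were spread widely. With LIF 8 of 11 cathepsins, 6 of 12 metalloproteinases, 5 of 10 ADAMTS, 4 of 10 ADAMs, 3 of 4 ADAMTS-like proteins, 2 of 3 serpins, 2 of 4 TIMPs and Plaur were lower. With ANX 5 cathepsins, 5 ADAMTS, 4 metalloproteinases, 3 ADAMTS-like proteins, 2 ADAMs, 2 TIMPs and Plaur were lower. The 5 members higher with LIF than with NGAL were Ctsc (0.55, SE 0.15, adjusted p 0.00393), Adam22 (0.53, SE 0.14, adjusted p 0.00433), Adamts4 (0.43, SE 0.11, adjusted p 0.00377), Ctsz (0.31, SE 0.08, adjusted p 0.00231) and Mmp12 (0.31, SE 0.11, adjusted p 0.0232, floored difference 0.10). With ANX the 7 higher members were Mmp3, Mmp9 and Mmp12 with the values above, Ctsc (0.81, SE 0.15, adjusted p 0.000198), Adam22 (0.55), Ctsz (0.45) and Serpinf1 (0.31). The Mmp12 call with LIF was lost without NGAL day 4 replicate 2 (adjusted p 0.0518) and the Serpinf1 call with ANX without NGAL day 3 replicate 1 (adjusted p 0.057). Markers moved too, with renal stroma lower than NGAL for 11 of 12 genes with LIF (7875 to 20027, against 20766 to 43575) and for 11 of 12 with ANX (8635 to 28909 against the same). Skeletal muscle markers were lower for 4 of 6 with LIF (2226 to 6733, against 2146 to 18650 with NGAL) and for 6 of 6 with ANX (1842 to 4086). Macrophage and leukocyte markers were lower for 7 and 8 of 13, with 1 higher in each. Mesenchyme markers were higher for 4 of 7 with LIF (6746 to 11099, against 2585 to 8971 with NGAL) and for 6 of 7 with ANX (6061 to 11644), and epithelial markers for 3 of 6 with each. Endothelial markers were lower for 4 of 9 and erythroid markers for 3 of 6 with each, with 1 higher. The part of these cell types in the protease differences was not tested.

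**Figure D5:**
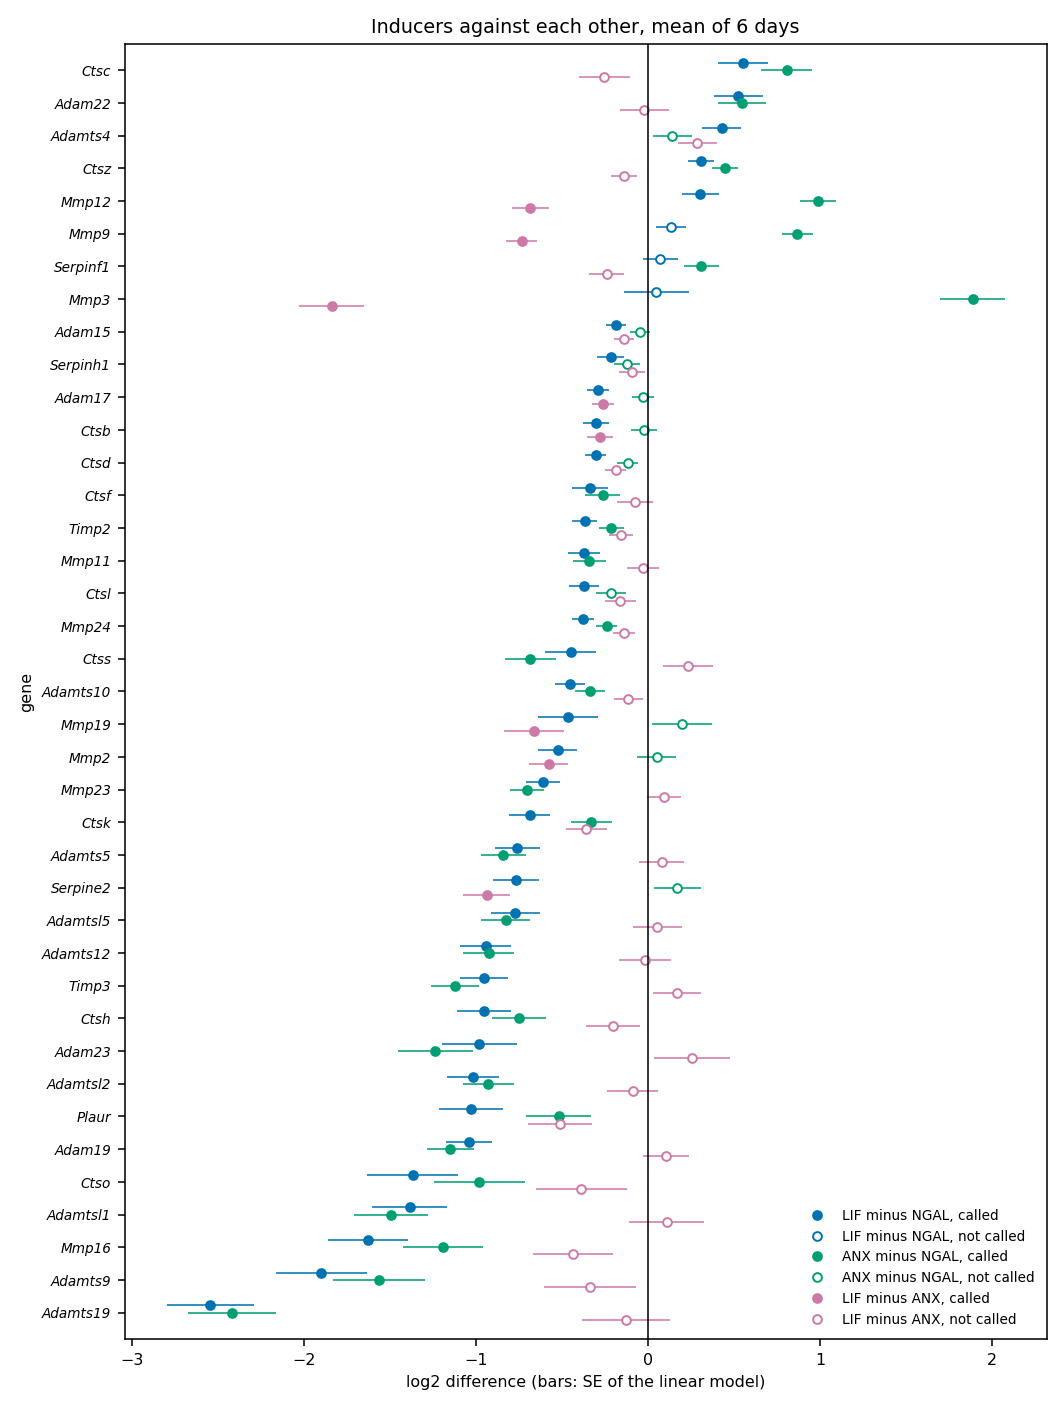
Difference in log2 intensity between inducers, averaged over 6 days, for each member called in at least 1 pair, as LIF minus NGAL, ANX minus NGAL and LIF minus ANX, with bars for the SE of the linear model. Filled points are called and open points are not. Most filled LIF and ANX points lie left of 0, with Adamts19 near -2.5, and Mmp3, Mmp9 and Mmp12 are to the right with ANX.

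The test of whether the inducers ran different courses over the days gave 0 called members by limma's moderated F-test, where 4 of 11388 genes were called (0.0351%). There 13 members were under an unadjusted p of 0.05, and the lowest adjusted p was 0.142, for Mmp3. Single arrays mattered, since 4 members were called without NGAL day 7 replicate 2, 2 without either ANX day 5 array and 1 each without NGAL day 7 replicate 1 and ANX day 3 replicate 1. Leaving out the 3 arrays of raised stroma markers, a choice made after seeing the data, gave 7 called members against 2.61% of all genes. These were Timp1, Plaur, Adam23, Mmp16, Mmp19, Adamtsl1 and Mmp3. All 7 had differed by over 1 log2 unit between replicates in at least 1 of the 3 groups that lost an array. The choice of arrays thus removed replicate spread of these same genes, so the calls are no evidence of different courses. No pairwise difference in the change from day 1 to day 7 was called for a member. Of all genes, 0.00878% were called higher and 0% lower for NGAL minus LIF (0.00878% in either direction), 0% for ANX minus LIF, and 0.00878% higher and 0.0439% lower for ANX minus NGAL (0.0527% in either direction).

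Other genes of the same pathways, outside the symbol rule, were listed separately, with 32 of 42 measured. In controls against fresh mesenchyme 5 were higher on day 1 and 10 on day 2, with 0 lower. Of all genes 3.80% and 9.47% were higher there, and 2.26% and 12.7% lower. Lgmn, the lysosomal legumain that processes cathepsins, led with 2.50 (SE 0.33, adjusted p 3.19e-05) and 3.17 (SE 0.33, adjusted p 6.04e-07). With LIF against controls 3 were higher and 5 lower, against 11.4% and 12.6% of all genes. With ANX 4 were higher and 4 lower, against 11.2% and 9.12%. NGAL had 0 called, as for all genes. A2m, the broad protease trap alpha-2-macroglobulin, was higher with LIF (2.32, SE 0.31, adjusted p 2.05e-05) and ANX (1.15, SE 0.31, adjusted p 0.0108). Tfpi2, a matrix-bound inhibitor of plasmin, was higher with LIF (1.44, SE 0.34, adjusted p 0.004) and ANX (1.84, SE 0.34, adjusted p 0.000643). The control mean was under the threshold, and the floored changes were 0.54 and 0.93. Reck, a membrane inhibitor of metalloproteinases, was lower with both (-1.22, SE 0.21, adjusted p 0.000288, and -0.84, SE 0.21, adjusted p 0.00714).

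From day 1 to day 7, 3 of the 32 were higher and 1 lower with LIF, against 4.39% and 6.51% of all genes. With NGAL 10 were higher and 0 lower (6.92% and 8.60%), and with ANX 6 and 2 (6.40% and 7.43%). Spint1, an inhibitor of epithelial serine proteases, rose with LIF (1.77, SE 0.28, adjusted p 0.000386), NGAL (1.37, SE 0.28, adjusted p 0.00218) and ANX (2.18, SE 0.28, adjusted p 2.65e-05). Its day 1 means were under the threshold, and the floored changes were 0.79, 0.11 and 0.93. Its target St14, matriptase, rose with ANX (1.41, SE 0.34, adjusted p 0.00731). Lox, the enzyme that crosslinks collagen and elastin, rose with NGAL (5.02, SE 0.70, adjusted p 5.36e-05) and ANX (2.71, SE 0.70, adjusted p 0.0109).

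The 8 measured members called in no comparison were Adam8, Adam9, Adam10, Adam11, Adam18, Adamts15, Plat and Timp4. The 19 members not measured were Adam2, Adam4, Adam6, Adam7, Adam32, Adam33, Adamts6, Adamts8, Ctse, Ctsj, Ctsm, Ctsq, Ctsr, Ctsw, Mmp7, Mmp8, Mmp10, Mmp13 and Mmp28. Their highest group means ran from 3.49 for Ctsr in fresh mesenchyme to 5.68 for Mmp13 on ANX day 4, under the threshold of 5.79, so their levels are not distinguished here from background.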

How the data were processed

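The deposited values are intensities that the authors made by robust multichip analysis (RMA), per the series design text and the submitters' processing notes. They ran from 7.6 to 17972, a linear scale, so log2 was taken. The platform's probe table gave 1 gene to 20832 of 31099 probe sets (436 named several, 9831 none), and the probe set with the highest mean over all arrays stood for its gene. The 76 members had 106 probe sets, 22 members had several, and all 76 matched RefSeq by gene ID.

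A group-means model over all 42 arrays (21 residual degrees of freedom) was fitted with limma 3.58.1 in R 4.3.3, with trended empirical Bayes, and checked on simulated data. Genes were kept when their highest group mean exceeded the 40th percentile. The members, marker lists and pathway lists were chosen with earlier results of these data known. Named genes were up to 4 of the largest rises and falls called per comparison and a list of anchors such as Mmp2, Timp1 and Plau. Same-numbered replicates were not treated as pairs, as the labels do not say that the number marks a shared litter or day. Over 210 pairs of groups their deviations correlated at -0.646 to 0.742, with a median of 0.0652, and over 0.1 in 41.9%. These correlations cannot decide whether some groups shared a litter or day. No 2 arrays were identical. Alternatives were the filter, probe set mean, renewed quantile normalization, trend, dap ratio, fewer arrays, single days, a replicate block and each array left out.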

Additional observations from a re-analysis of the deposited data

How the results depend on the processing

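Of 160 calls of members, 99 held with every array left out in turn and 61 were lost without at least 1. When 1 array was left out, the lone replicate was assumed to vary like the other groups. The number of called members then ran from 2 to 5 for control day 1 against fresh (8 with all arrays), 10 to 12 for control day 2 (17), 7 to 10 for LIF against control (12), 0 to 0 for NGAL against control (0), 8 to 17 for ANX against control (15), 2 to 7 for the LIF course (6), 6 to 24 for the NGAL course (16), 6 to 10 for the ANX course (13), 33 to 39 for LIF against NGAL (36), 5 to 12 for LIF against ANX (8), 25 to 34 for ANX against NGAL (29) and 0 to 4 for inducer by day (0).

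With only the arrays compared in the fit, the counts were 38 for control day 2, 23, 1 and 26 for LIF, NGAL and ANX against control, and 0, 1 and 6 for the LIF, NGAL and ANX courses, against 51.4%, 27.2%, 0.149%, 24.5%, 0.263%, 1.26% and 5.15% of all genes in the same fits. On day 1 alone 5 members were called with LIF and 6 with ANX, and on day 2 alone 4 and 4, against 8.33%, 6.50%, 8.14% and 5.26% of all genes. With no filter 1 member was called for inducer by day (0.0352% of all genes), and without the arrays of raised stroma markers 7 (2.61%). The change of Mmp14 in day 2 controls reversed to -0.0528 (adjusted p 0.9) with the mean of its probe sets, and the cause was not tested. Over the alternatives other than leaving out 1 array, 109 of 1382 values of called members lost their call, 38 of them with only the arrays compared, 17 on day 1 alone, 19 on day 2 alone, 12 with the dap ratio as a covariate and 9 with the mean of probe sets. With the replicate number as a block the 12 counts, in the order above, were 10, 17, 13, 0, 17, 6, 17, 15, 37, 8, 31 and 0, and the replicate block ended 0 calls of members. The number of arrays and the signal of dim probe sets limit what could be called.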
